A study of Mus musculus with 8 samples.

Results

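Hair follicle stem cells of NFIB/X-dKO mice were set against the same sorted population of WT mice, to ask how the cells' RNA differs when the transcription factor genes Nfib and Nfix are targeted together. The 4 libraries of the comparison, NFIB/X-dKO 33 and 36 and WT 34 and 82, were chosen by the names of their columns in a table of 8 RNA sequencing libraries, and every gene was considered: 15434 of 46517 genes passed the filter on low values and were tested. The other 4 libraries, 2 from NFIB-cKO and 2 from NFIX-cKO mice, entered the estimate of the spread and are used where the double knockout is set beside loss of a single factor. Levels are TPM, a share of all transcripts that takes account of transcript length and library size, with 1 library per animal and the animal's number in the library name.

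NFIB/X-dKO mice carried Sox9-CreER with the alleles NFIBfl/fl, NFIXfl/fl and the reporter R26-YFPfl/fl, and WT mice carried the same floxed alleles and the floxed YFP reporter without Sox9-CreER. NFIB-cKO mice had Sox9-CreER, NFIBfl/fl and the reporter, and NFIX-cKO mice had Sox9-CreER, NFIXfl/fl, NFIBfl/+ and the reporter, so the NFIX-cKO cells also had 1 floxed allele of Nfib. All mice were male and at postnatal day 70, in the resting phase (second telogen) of the back skin hair cycle. Cells were sorted as DAPI-negative, Sca-1-negative, integrin alpha6-positive and CD34-positive, and knockout cells additionally as YFP-positive, a gate the WT cells did not pass through. Loss of the genes, expression of CreER from the Sox9 promoter and the YFP gate therefore cannot be told apart in any comparison with WT. When CreER was activated is not given in the sources used here.

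NFI proteins are transcription factors that bind a palindromic DNA motif as dimers, and NFIB and NFIX are the family members best known from the hair follicle bulge. The bulge is the niche in which hair follicle stem cells rest through telogen, held by BMP signals and released by Wnt signals at the start of a new growth phase. Bulge cells also make the basement membrane and secreted cues to which neighbouring nerve, muscle, fat, melanocyte and immune cells respond, which is why secreted signals, channels and matrix genes were examined beside the transcription factors and fate genes.

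The sorted cells carried markers of the labelled population: Krt15, a keratin of the bulge, stood at 7507 and 8704 TPM in NFIB/X-dKO and 13164 and 11904 TPM in WT libraries, and Cd34, the sorting marker, at 958 and 861 and 1144 and 929 TPM. RNA of the targeted genes was present in all 4 libraries. Nfib had 377 and 389 TPM in NFIB/X-dKO and 229.6 and 209 TPM in WT libraries, and Nfix had 125 and 148 TPM and 158 and 157 TPM; which exon is floxed is not given in the sources used here, so totals over the whole gene check no label. Expected counts, deposited for NFIB/X-dKO but not analysed here for WT, summed to 57173266 and 61247130 reads, so the depth behind the WT values is unknown. Markers of other cell types differed in level within each list. Of 17 fibroblast and dermal papilla markers, 10 were under 1 TPM in all 4 libraries, among them Lum, Dcn, Pdgfra and Dpt at no more than 0.19 TPM. The other 7 were tested: 1 rose (Col1a1) and 2 fell (Col6a1 and Crabp1), which is 42.9%, against 2.88% of all tested genes. Of 19 immune markers, 11 were under 1 TPM in all 4 libraries, and the list summed to 70.1 and 69.7 TPM in NFIB/X-dKO, against 56.3 and 71.3 TPM in WT libraries, most of it from the antigen presentation genes Cd74, H2-Aa and H2-Ab1. Among the markers that could be tested, 0 of 8 of immune cells, 0 of 7 of melanocytes (14 listed) and 0 of 4 of endothelium and muscle (15 listed) passed the test. As 2.88% of all tested genes passed, 0 in lists this short does not set them apart from other genes. Atoh1, Isl1 and Chga of Merkel cells were listed at 0 in all 4 libraries. Immediate early and heat shock genes, which are induced by handling of cells, summed to 22828 and 26278 TPM over 26 genes in NFIB/X-dKO libraries, against 37884 and 40104 TPM in WT libraries. Of these genes 2 (Jund and Hspa1b) fell, which is 7.69%, against 1.26% of all tested genes. The part of immediate early and heat shock genes in the results below was not tested.

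Between NFIB/X-dKO and WT, 445 of 15434 genes passed the test (limma, Benjamini-Hochberg adjusted p under 0.05), which is 2.88% of the genes: 250 were higher (1.62%) and 195 lower (1.26%) in NFIB/X-dKO. Of the 445 genes, 394 are annotated as protein coding. The median difference over all tested genes was 0.16 on the log2(TPM + 1) scale, and small rises are relative to that shift. After median-of-ratios scaling, which sets this median to 0, 199 genes were higher and 243 lower, so that the share of calls that were higher was 45.0%, against 56.2% on deposited TPM. In 38.4% of all tested genes both NFIB/X-dKO libraries lay above both WT libraries, and in 17.1% both lay below, so an absence of overlap alone marks no gene out.

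Both NFIB/X-dKO animals have numbers in the 30s, as WT 34 has, whereas the other WT animal is number 82; whether the numbers stand for a litter, a date or a sequencing run is not given in the sources used here. Against WT 34 alone, with the spread of the other groups lent to the single WT library, 194 genes passed the test (1.27% of 15305), 90 of them higher (0.588%) and 104 lower (0.68%). Of the 445 genes, 434 had the same direction there, and a gene absent from that fit was not counted among them. WT 34 is also part of the WT mean behind the 445 calls, so the shared direction is no independent support. With all 8 libraries kept and the groups split by number, 249 of the 445 passed within the 30s, and 399 passed with the number as a covariate. The calls rest more on the double knockout libraries: without NFIB/X-dKO 33 the count was 49, and without NFIB/X-dKO 36 it was 40. Of the 173 genes named by rule or counted in a list below that passed the test, 24 passed in every fit that left out 1 of the 4 libraries, and 60 passed in none. The 24 include Krt24, Ltbp2, Itga8, Timp3, Tgm5, Pdgfc, Ccl27a, Cck, Piezo2, Tnfrsf11b, Col8a2 and Egfl6.

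The gene lists used from here on were drawn up with earlier results of these data known. The share of a list that passed the test is therefore a description and no independent support. Bulge identity genes were among the lists with larger shares past the test. Of 43 listed bulge genes tested, all but 1 of the 44 in the files, 11 passed the test (25.6%, against 2.88% of all genes): 8 fell and 3 rose, with a median difference of -0.18 over the list and 0.16 over all genes. All 11 also passed after scaling, and 6 passed against WT 34 alone (Hopx, Itga8, Krt24, Lhx2, Ltbp2 and Wif1). Krt24, a bulge keratin on chromosome 11 (mm10, chr11:99279959-99285262), had 26.7 and 28.6 TPM in NFIB/X-dKO and 460.2 and 353 TPM in WT libraries, a 14.7-fold lower mean. Ltbp2, which encodes a matrix protein of the fibrillin and LTBP family, had 1.7 and 3.01 TPM in NFIB/X-dKO and 89.03 and 52.6 TPM in WT libraries (-4.40 ± 0.30 on the log2 scale, SE, adjusted p = 0.00242). Both genes were low in both double knockout libraries and high in both WT libraries. Such a lack of overlap was seen in 17.1% of all tested genes.

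Lhx2, the LIM homeodomain factor that keeps bulge cells in the stem cell state (chr2:38339281-38369733), fell to 104 and 122 TPM in NFIB/X-dKO, against 291 and 314 TPM in WT libraries, a difference of -1.42 ± 0.15 on the log2 scale (SE, adjusted p = 0.00612). Hopx, a homeodomain protein that marks bulge cells, fell by a similar amount, with 158 and 145 TPM in NFIB/X-dKO and 477 and 363 TPM in WT libraries (-1.45 ± 0.16, adjusted p = 0.00647). Lgr5, the R-spondin receptor that marks the lower bulge and hair germ, had 38.6 and 44.8 TPM and 121 and 129 TPM in the same groups (-1.57 ± 0.20, adjusted p = 0.0128). The other listed genes that fell were Igfbp6, Foxc1 and Dkk3. The 3 listed genes that rose were Itga8, Wif1 and Ptprk. Itga8, an integrin subunit, had 7.03 and 7.11 TPM in NFIB/X-dKO and 0.17 and 0.29 TPM in WT libraries. At that WT level Itga8 was no marker of the WT cells, although it was on the list. Wif1, a secreted Wnt inhibitor, had 267 and 254 TPM in NFIB/X-dKO and 54.5 and 78.3 TPM in WT. Ptprk, a receptor phosphatase, had 65.6 and 64.4 TPM in NFIB/X-dKO and 35.6 and 29.6 TPM in WT. Other regulators and markers of the bulge did not pass the test: Sox9 had 79 and 135 TPM in NFIB/X-dKO and 143 and 144 TPM in WT libraries, with both double knockout values below both WT values, and Nfatc1, Tbx1, Tcf7l1, Krt15 and Cd34 had adjusted p from 0.193 to 0.869.

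The promoters of 4 of these genes are printed as RefSeq gives them on GRCm38.p6, from the 300-base windows that span each start, to show where the letters of the NFI half-site do and do not occur: Krt24, Ltbp2 and Lhx2 fell and Wif1 rose, and the 4 were chosen after their values and windows were seen. Capitals mark TTGGC or its reverse complement GCCAA, and each sequence runs 5′ to 3′ on the strand of its gene.
Krt24 (chr11:99285213-99285512, minus strand): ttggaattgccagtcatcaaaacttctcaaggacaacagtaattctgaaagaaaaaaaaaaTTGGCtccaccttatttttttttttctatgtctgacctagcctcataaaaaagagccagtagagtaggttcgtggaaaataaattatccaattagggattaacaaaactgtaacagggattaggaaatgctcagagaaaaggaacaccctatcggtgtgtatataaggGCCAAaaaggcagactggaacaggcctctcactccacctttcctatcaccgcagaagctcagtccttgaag
Ltbp2 (chr12:84876442-84876741, minus strand): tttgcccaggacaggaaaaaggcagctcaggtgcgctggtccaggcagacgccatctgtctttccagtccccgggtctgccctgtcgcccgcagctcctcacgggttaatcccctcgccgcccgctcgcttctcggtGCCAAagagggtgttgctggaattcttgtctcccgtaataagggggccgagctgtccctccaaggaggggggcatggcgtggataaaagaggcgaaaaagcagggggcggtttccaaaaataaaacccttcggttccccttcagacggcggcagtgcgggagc
Lhx2 (chr2:38339031-38339330, plus strand, 1 of 2 windows of the gene): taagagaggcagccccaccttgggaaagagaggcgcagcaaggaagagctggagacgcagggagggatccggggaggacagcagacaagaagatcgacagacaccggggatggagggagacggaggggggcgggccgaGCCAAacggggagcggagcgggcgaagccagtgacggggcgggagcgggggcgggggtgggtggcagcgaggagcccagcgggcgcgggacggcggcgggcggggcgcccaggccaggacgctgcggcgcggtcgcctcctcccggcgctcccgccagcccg
Wif1 (chr10:121033754-121034053, plus strand): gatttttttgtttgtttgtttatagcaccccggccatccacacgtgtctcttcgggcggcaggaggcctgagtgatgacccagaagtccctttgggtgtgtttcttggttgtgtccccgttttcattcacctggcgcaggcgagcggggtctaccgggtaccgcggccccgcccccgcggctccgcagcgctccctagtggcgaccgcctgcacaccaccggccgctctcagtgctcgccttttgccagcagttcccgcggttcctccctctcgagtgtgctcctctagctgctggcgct

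The Krt24 window holds 2 half-sites, the Ltbp2 and Lhx2 windows 1 each, and the Wif1 window 0. The second Lhx2 window has 0. Of the other bulge genes past the test with a window, Igfbp6 fell and has 0 half-sites, Foxc1 fell and has 1, Hopx fell and has 1 in 1 window and 0 in the other, and Itga8 and Ptprk rose and have 0. The half-site is short and common: 15344 of 32851 RefSeq promoter windows (46.7%) hold at least 1, whereas the full palindrome, TTGGC and GCCAA with 5 bases between them, is in 12 windows (0.0365%) and in no window of a gene that passed the test. The match of letters is a description of these windows and shows no binding. At least 1 half-site was in 49.8% of the windows of tested genes. The share was 48.3% for genes called higher and 55.3% for genes called lower in NFIB/X-dKO. Only 64.4% of the tested genes matched an entry in the promoter table, and the difference between these shares was not tested.

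Among transcription factor genes outside the zinc-finger Zfp family, falls outnumbered rises. Of 342 tested, 16 passed the test (4.68%, against 2.88% of all genes), 11 of them lower and 5 higher in NFIB/X-dKO, with a list median of 0.07 against 0.16 for all genes and 627 such genes in the files. Scaling left 10 of the 16 past the test, and Bcl11a, Creb5, Elk3, Sox15, Cebpd and Etv4 were then no longer past it. Against WT 34 alone, Bnc1, Creb5, Hopx and Lhx2 passed. No gene of the 16 passed in every fit that left out a library.

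Cebpd, a basic leucine zipper factor induced by stress and differentiation, had the largest fall of the factors on the log2(TPM + 1) scale, with 25.1 and 30.01 TPM in NFIB/X-dKO and 114 and 204 TPM in WT libraries (-2.43 ± 0.39, SE, adjusted p = 0.0265). Bnc1, the keratinocyte zinc-finger factor basonuclin 1, had 8.99 and 10.3 TPM in NFIB/X-dKO and 35.2 and 23.01 TPM in WT libraries (-1.47 ± 0.24, adjusted p = 0.0266). Scx, known as scleraxis from tendon, had 10.7 and 13.7 TPM and 33.98 and 54.9 TPM, and Etv4, an ETS factor downstream of FGF signals, had 6.3 and 4.06 TPM and 19.8 and 20.1 TPM. In these 4 genes both double knockout libraries lay below both WT libraries, as in 17.1% of all tested genes. The WT values of Cebpd and Scx lay further apart than those of the double knockout. Foxc1, the forkhead factor that supports bulge quiescence, fell to 15.7 and 13.3 TPM in NFIB/X-dKO, against 28.1 and 27.8 TPM in WT libraries (-0.90 ± 0.16, adjusted p = 0.0317). Jund, an AP-1 subunit that is also on the immediate early list, fell to 199 and 253 TPM, against 445 and 475 TPM in WT (-1.03 ± 0.15, adjusted p = 0.0186). Pparg, the nuclear receptor of lipid synthesis, Foxi3, a forkhead factor of ectodermal appendages, and Epas1, which encodes HIF-2alpha, also fell, each to under 1 TPM in NFIB/X-dKO libraries, against 1 to 4 TPM in WT libraries; by ratio of mean levels Pparg fell more than Cebpd, 14.03-fold against 5.76-fold.

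Among the 5 factors that rose, the largest ratio of mean levels was 3.28-fold, in Elk3. Bcl11a, a zinc-finger repressor known from globin switching, had 43.01 and 47.99 TPM in NFIB/X-dKO and 24.9 and 23.4 TPM in WT libraries (0.88 ± 0.13, adjusted p = 0.0209). Prdm11 had 39.8 and 37.5 TPM and 18.5 and 20.1 TPM, and Creb5, a CREB family factor, had 41.8 and 48.4 TPM and 19.9 and 25.1 TPM. Sox15 and the ETS factor Elk3 were low in both groups, at 5.35 and 6.39 and 10.8 and 11.8 TPM in NFIB/X-dKO and 1.92 and 2.39 and 2.55 and 4.34 TPM in WT libraries. Of factors with a set place in skin fate, Klf4, Gata3, Trp63, Lef1, Hoxc13 and Msx2 did not pass, with adjusted p from 0.23 to 0.535. Nfia and Nfic, the family members that were not targeted, had 16.3 and 16.2 and 35.1 and 39.98 TPM in NFIB/X-dKO and 12.1 and 11.8 and 39.5 and 30.7 TPM in WT libraries, with adjusted p = 0.315 and 0.794. The difference of Nfic changed sign with scaling.

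**Figure D1:**
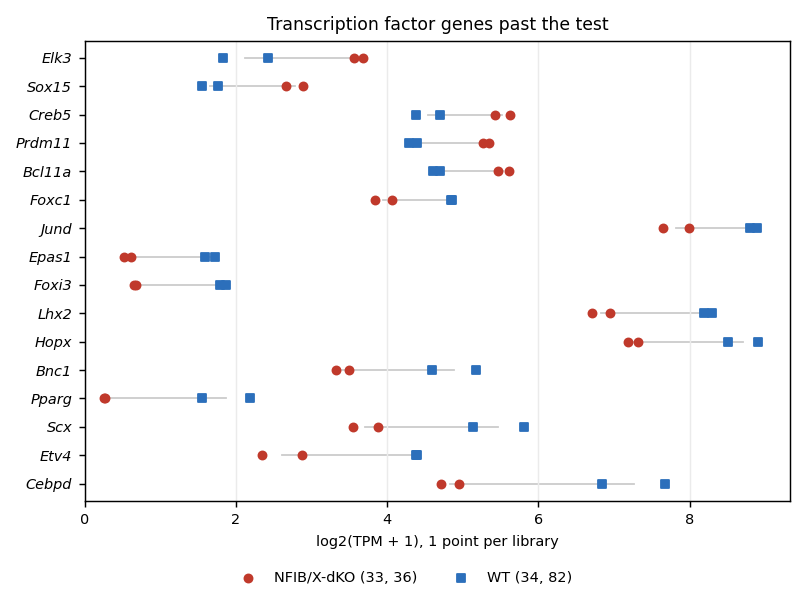
Levels of the 16 transcription factor genes past the test, in log2(TPM + 1) on the horizontal axis, with 1 point per library (circles, NFIB/X-dKO 33 and 36; squares, WT 34 and 82) and a line joining the group means. The 5 genes that rose are at the top and the 11 that fell run down to Cebpd. In every gene shown the groups do not overlap. Of all tested genes, 38.4% lie above and 17.1% below WT in the same way.

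Secreted signals and their secreted antagonists changed in both directions. Of 135 tested of 307 in the files, 25 passed the test (18.5%, against 2.88% of all genes). Of the 25, 13 were higher and 12 lower in NFIB/X-dKO, and the list median was 0.00. Scaling left 20 of the 25 past the test, and 10 passed against WT 34 alone (Cck, Ccl27a, Ccl27b, Cxcl14, Grem1, Ltbp2, Nbl1, Pdgfc, Ptn and Wif1). One gene on the list, Fgf13, is counted for its family name, although its product is known to act inside cells.

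Ligands of the platelet-derived growth factor receptors, which in skin are carried by dermal cells, were higher in the double knockout for 2 of the 4 family members. Pdgfc (chr3:81036416-81214040) had 82.02 and 82.8 TPM in NFIB/X-dKO and 10.8 and 16.4 TPM in WT libraries, a 6.06-fold higher mean (2.54 ± 0.21, SE, adjusted p = 0.0028). Pdgfd had 7.61 and 8.54 TPM in NFIB/X-dKO and 0.72 and 0.64 TPM in WT libraries (2.43 ± 0.29, adjusted p = 0.00939). The rises placed Pdgfc near the level of Pdgfa in the double knockout libraries, where Pdgfa had 105 and 107 TPM; Pdgfa itself had 81.6 and 85.8 TPM in WT (adjusted p = 0.214), and Pdgfb did not pass either (adjusted p = 0.143). Hgf, the ligand of the MET receptor, rose at a low level, to 5.22 and 3.33 TPM in NFIB/X-dKO, against 0.49 and 0.55 TPM in WT.

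Of Wnt ligand genes, 3 rose: Wnt7b to 51.3 and 55.2 TPM in NFIB/X-dKO, against 15.8 and 19.04 TPM in WT libraries, and Wnt6 and Wnt16 to 7.58 and 10.2 and 5.16 and 7.05 TPM, against 1.15 and 1.83 and 0.72 and 0.69 TPM. Adjusted p was 0.0469 for Wnt7b, 0.0324 for Wnt6 and 0.0332 for Wnt16; none of the 3 passed against WT 34 alone, and Wnt7b did not pass after scaling. The secreted Wnt inhibitor Wif1 rose 3.92-fold (1.98 ± 0.24, adjusted p = 0.00906), while Dkk3, a divergent member of the Dickkopf family, had 185 and 199.8 TPM in NFIB/X-dKO and 337 and 303 TPM in WT and fell by 0.73 (adjusted p = 0.0372). Genes of ligands and of an inhibitor of the pathway were higher in the same 2 libraries. Axin2, a target gene of canonical Wnt signals, had 83.3 and 78.4 TPM in NFIB/X-dKO and 31.1 and 32.5 TPM in WT libraries, with no overlap, and narrowly missed the threshold (adjusted p = 0.055).

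Of the secreted antagonists of BMP signals, Grem1 and Nbl1 fell, and Fst, follistatin, did not pass the test (364 and 253 TPM in NFIB/X-dKO, 202 and 292 TPM in WT). Grem1, gremlin 1 (chr2:113746164-113758646), had 68.7 and 65.4 TPM in NFIB/X-dKO and 301 and 183 TPM in WT libraries (-1.79 ± 0.24, SE, adjusted p = 0.0142). Nbl1, also called DAN, had 140.3 and 141 TPM in NFIB/X-dKO and 290.4 and 269 TPM in WT libraries (-0.99 ± 0.11, adjusted p = 0.0078). Both passed against WT 34 alone and after scaling. The BMP ligands Bmp4 and Bmp6 were under 3 TPM in all 4 libraries and did not pass, and neither did Bmp2, with 21.1 and 17.4 TPM in NFIB/X-dKO and 7.98 and 16.3 TPM in WT libraries (adjusted p = 0.451). Fstl1, a follistatin-related glycoprotein, rose to 138 and 149.6 TPM in NFIB/X-dKO, against 45.01 and 49.3 TPM in WT, and Tgfb3, a TGF-beta ligand, to 58.4 and 62.1 TPM, against 20.7 and 20.1 TPM.

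Chemokine genes split by member. Cxcl14, a chemokine abundant in epithelia, was abundant, with 8878 and 10234 TPM in NFIB/X-dKO and 1978 and 4000.0 TPM in WT libraries (1.76 ± 0.31, adjusted p = 0.0358); it passed against WT 34 alone but not after scaling (adjusted p = 0.141). Ccl27a, the keratinocyte chemokine that attracts CCR10-bearing T cells, had 78.2 and 74.4 TPM in NFIB/X-dKO and 323 and 423 TPM in WT libraries (-2.26 ± 0.15, adjusted p = 0.00185). Near-identical copies of this gene lie close together on chromosome 4, and how reads were shared between Ccl27a and Ccl27b is uncertain; Ccl27b also fell, to 4.40 TPM in library 33 and a listed 0 in library 36, against 192 and 71.1 TPM in WT. Cxcl12, the ligand of CXCR4, had 17.04 and 16.3 TPM in NFIB/X-dKO and 87.4 and 85.1 TPM in WT libraries (-2.30 ± 0.28, adjusted p = 0.00978). Ackr4, a scavenging receptor for other chemokines, fell beside them, with 33.7 and 25.9 TPM in NFIB/X-dKO and 143 and 70.5 TPM in WT.

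Other secreted factors that fell were growth factors and binding proteins. Ptn, pleiotrophin, remained abundant, with 764 and 700.0 TPM in NFIB/X-dKO and 1877 and 1387 TPM in WT libraries (-1.14 ± 0.17, adjusted p = 0.0207). Cck, a neuropeptide gene, was 0.3 and 0.37 TPM in NFIB/X-dKO and 63.2 and 35.2 TPM in WT libraries. Igfbp6, which binds insulin-like growth factors, had 14.6 and 18.4 TPM and 48.8 and 74.2 TPM, Angptl2, an angiopoietin-like protein, 33.6 and 26.8 TPM and 81.8 and 89.3 TPM, and Csf1, the growth factor of macrophages, 2.46 and 2.36 TPM and 6.52 and 6.95 TPM. All 5 were lower in both double knockout libraries than in either WT library, as were 17.1% of all tested genes. Pros1, which encodes protein S, a ligand of TAM receptors, rose to 30.98 and 32.4 TPM in NFIB/X-dKO, against 19.2 and 14.4 TPM in WT, and so did the TAM receptor gene Tyro3, with 41.4 and 44.6 and 21.9 and 17.7 TPM (adjusted p = 0.0465 and 0.0207). Nell2, a neural secreted glycoprotein, reached 1.6 and 1.36 TPM in NFIB/X-dKO and was listed at 0 in WT 34 and at 0.16 TPM in WT 82.

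**Figure D2:**
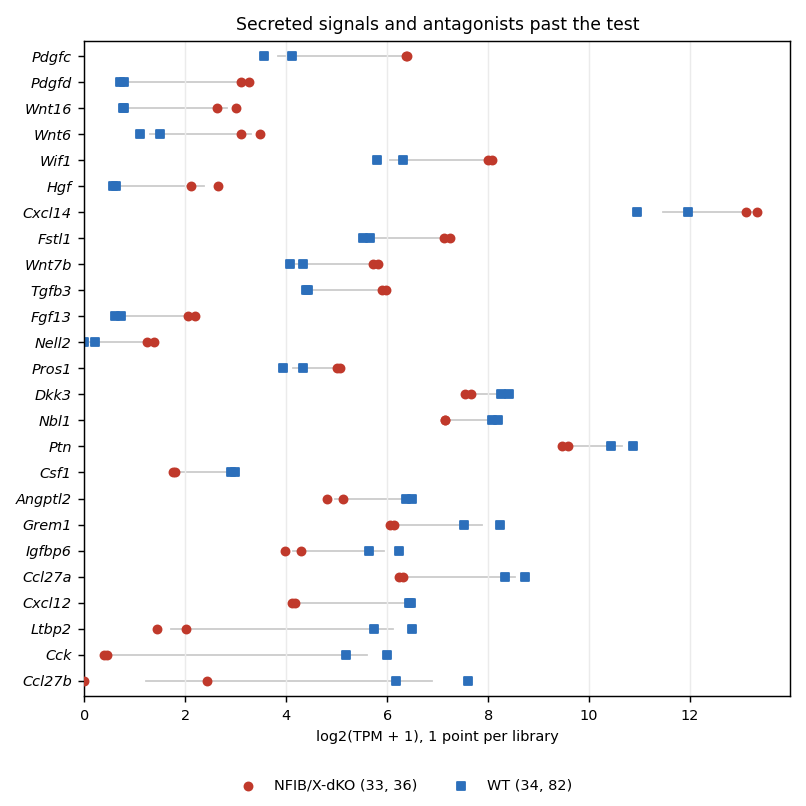
Levels of the 25 genes of secreted signals and antagonists past the test, in log2(TPM + 1), 1 point per library (circles, NFIB/X-dKO; squares, WT) with a line joining the group means. Pdgfc, Pdgfd and the Wnt genes lie to the right in NFIB/X-dKO, and Cxcl12, Grem1, Ccl27a and Ltbp2 to the left.

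Receptor genes for secreted signals that passed the test were on both sides. Of 130 tested, 13 passed (10.0%, against 2.88% of all genes), 7 higher and 6 lower, with a list median of 0.15; 4 passed against WT 34 alone (Ackr4, Fzd9, P2ry1 and Tnfrsf11b). The R-spondin receptors Lgr4 and Lgr5, which both amplify Wnt signals, moved in opposite directions: Lgr4 had 264 and 225 TPM in NFIB/X-dKO and 116 and 90.2 TPM in WT libraries (1.24 ± 0.21, SE, adjusted p = 0.0293), whereas Lgr5 fell as given above. Of FGF receptors, Fgfr2 rose to 293 and 303 TPM in NFIB/X-dKO, against 179 and 165 TPM in WT (0.79 ± 0.12, adjusted p = 0.0205). Fgfr1 fell to 173 and 182 TPM in NFIB/X-dKO, against 320.5 and 399 TPM in WT (-1.01 ± 0.15, adjusted p = 0.0209), and was not past the test after scaling. Fgfr2 was the higher of this pair in both NFIB/X-dKO libraries, and Fgfr1 in both WT libraries. Among Wnt receptors, Fzd1 and Ryk rose, and Fzd9 fell to 0.14 and 0.09 TPM, against 4.75 and 3.23 TPM in WT. Fzd1 was not past the test after scaling (adjusted p = 0.0961) or with the animal number as a covariate (adjusted p = 0.0791).

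Tnfrsf11b, which encodes osteoprotegerin, a secreted decoy receptor of RANKL, had the largest rise of the receptor list, with 143 and 185 TPM in NFIB/X-dKO and 24.4 and 30.8 TPM in WT libraries (2.52 ± 0.19, SE, adjusted p = 0.00252). Il17rb, a subunit of the interleukin-25 receptor, had 37.5 and 35.2 TPM in NFIB/X-dKO and 12.3 and 8.61 TPM in WT. Gfra2, the co-receptor for neurturin, fell to 6.52 and 5.78 TPM in NFIB/X-dKO, against 33.9 and 55 TPM in WT (-2.63 ± 0.34, adjusted p = 0.0119), and P2ry1, an ADP receptor, to 6.74 and 7.77 TPM, against 29.6 and 19.3 TPM.

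The axon guidance genes that passed the test were all higher in NFIB/X-dKO, but most of the list did not pass. Of 45 ligands and receptors tested, 6 rose and 0 fell (13.3%, against 1.62% of all genes that were higher), and 39 did not pass; the list median was 0.15, against 0.16 for all genes. Of the 6, 3 passed against WT 34 alone (Epha4, Robo2 and Sema3e), and 3 passed after scaling (Epha4, Ephb1 and Sema3e). Sema3e, a secreted semaphorin, was the most abundant, with 291 and 275 TPM in NFIB/X-dKO and 94.9 and 71.4 TPM in WT libraries (1.77 ± 0.20, SE, adjusted p = 0.00833). Epha4, an ephrin receptor, had 77.99 and 90.1 TPM in NFIB/X-dKO and 26.6 and 34.7 TPM in WT libraries (1.43 ± 0.16, adjusted p = 0.00746). Ephb1 and Sema3d were lower in level, with 13.1 and 15.2 and 20.3 and 13.3 TPM in NFIB/X-dKO and 1.75 and 0.87 and 5.91 and 5.0 TPM in WT. Robo2, a receptor of Slit proteins, had 30.5 and 35.4 TPM and 10.5 and 13.7 TPM, and Unc5b, a netrin receptor, 22.2 and 23.4 TPM and 11.7 and 12.7 TPM. In each of the 6 genes both double knockout libraries lay above both WT libraries, as in 38.4% of all tested genes. On the list of nerve and Schwann cell markers, Gap43 and Ncam1 rose and Cadm3 fell, which is 37.5% of the 8 tested, against 2.88% of all genes. The 15 other markers, 10 of them under 1 TPM in all 4 libraries, summed to 49.4 and 40.2 TPM in NFIB/X-dKO, against 55.1 and 106 TPM in WT libraries.

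Ion channel, pump and gap junction genes changed in both directions as well. Of 127 tested of 382 in the files, 20 passed the test (15.7%, against 2.88% of all genes). Of the 20, 11 were higher and 9 lower, and the list median was 0.11. Scaling left 15 of the 20, with Clic1, Gabre, Gja1 and Kcnip2 among those no longer past the test, and 8 passed against WT 34 alone. The genes that rose include 4 of potassium channel subunits and modulators: Kcnn3, the small-conductance calcium-activated channel SK3, had 23.3 and 21.1 TPM in NFIB/X-dKO and 2.21 and 3.8 TPM in WT libraries (2.56 ± 0.26, SE, adjusted p = 0.00552). Kcnmb4, a subunit of the large-conductance calcium-activated channel, had 12.6 and 12.5 TPM in NFIB/X-dKO and 3.59 and 2.02 TPM in WT, and Kcnq3 and the modulator Kcnip2 rose at levels under 8 TPM. Kcnk2, the mechanically gated potassium channel TREK-1, fell to 15.2 and 15.9 TPM in NFIB/X-dKO, against 43.4 and 36.1 TPM in WT (adjusted p = 0.0384).

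A pair of mechanically gated cation channel genes went opposite ways. Piezo2, the channel of touch, had 54.1 and 57.7 TPM in NFIB/X-dKO and 1.79 and 2.18 TPM in WT libraries (4.25 ± 0.19, SE, adjusted p = 0.000325). Trpv4, a channel opened by heat, swelling and stretch, had 31.8 and 34.3 TPM in NFIB/X-dKO and 78.9 and 94.2 TPM in WT libraries (-1.36 ± 0.21, adjusted p = 0.0221). Piezo2 passed against WT 34 alone, and Trpv4 did not. Piezo2 is also a Merkel cell marker; of the 12 on that list, 9 were under 1 TPM in all 4 libraries and were not tested, and 3 were. Krt8, the tested marker that did not pass, had 9.19 and 6.42 TPM in NFIB/X-dKO and 2.72 and 6.8 TPM in WT libraries, and its groups overlapped. Ncam1, the other Merkel cell marker that rose, had 2.61 and 2.77 TPM in NFIB/X-dKO and 0.18 and 0.27 TPM in WT libraries. The 2 rises are 66.7% of the 3 markers tested, against 1.62% of all genes.

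Neurotransmitter receptor and calcium channel genes changed too. Glrb, the beta subunit of the glycine receptor, had 87.8 and 85 TPM in NFIB/X-dKO and 17.4 and 24.8 TPM in WT libraries (2.00 ± 0.19, SE, adjusted p = 0.00477). Grik1, a kainate receptor subunit, fell to 5.44 and 6.5 TPM, against 30.5 and 20.1 TPM in WT, and Gabre, a GABA-A receptor subunit, to 0.66 and 0.63 TPM, against 3.28 and 4.97 TPM. Subunits of voltage-gated calcium channels fell, Cacna1c to 4.55 and 4.93 TPM in NFIB/X-dKO, against 11.1 and 12.1 TPM in WT, and Cacna2d2 to 0.41 and 0.42 TPM, against 3.66 and 2.95 TPM. Regulators and junctions completed the list. Fxyd6, of the FXYD family of ion transport regulators, had 11.9 and 12.97 TPM in NFIB/X-dKO and 77.03 and 64.3 TPM in WT libraries (-2.41 ± 0.27, adjusted p = 0.00747). Gja1, connexin 43, rose to 306 and 334 TPM in NFIB/X-dKO, against 99.8 and 149 TPM in WT, and the pannexin gene Panx3 fell to 0.05 and 0.01 TPM, against 2.47 and 3.62 TPM.

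**Figure D3:**
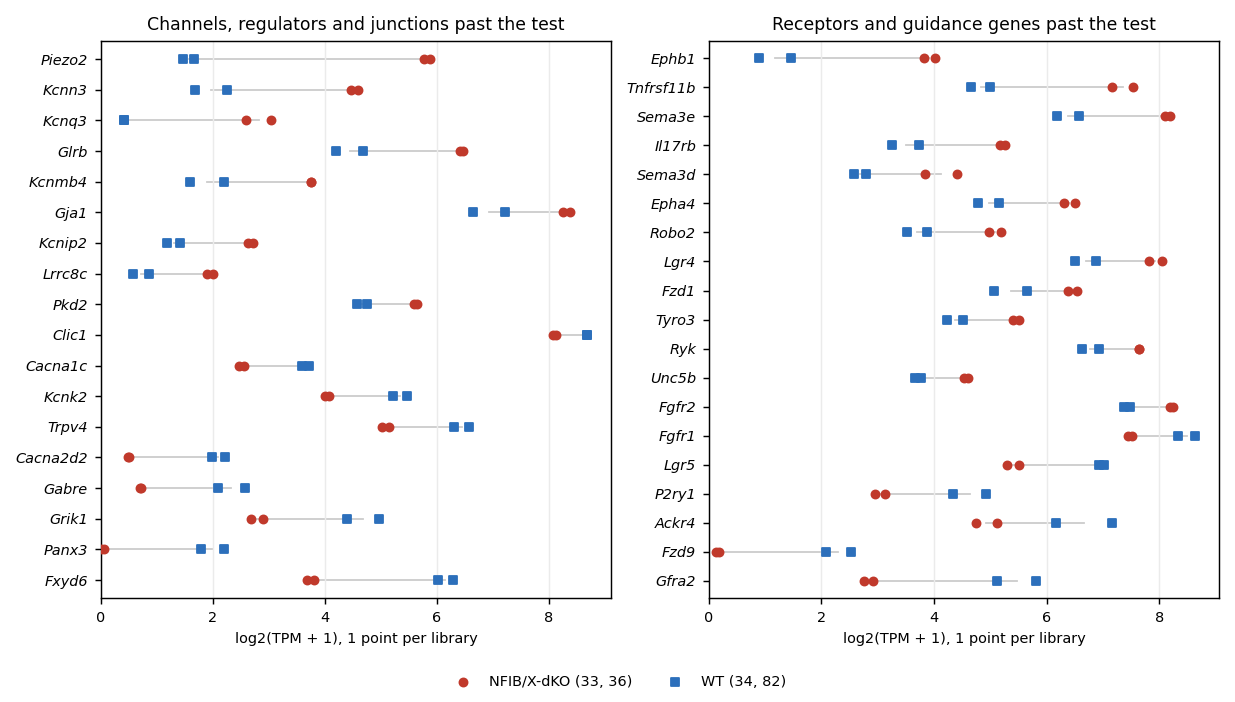
Levels in log2(TPM + 1) of the channel, channel regulator and junction genes (left panel, pump genes not drawn) and of the receptor and guidance genes (right panel) past the test, 1 point per library (circles, NFIB/X-dKO; squares, WT), with a line joining the group means. Lgr4 and Fgfr2 lie to the right in NFIB/X-dKO and their family members Lgr5 and Fgfr1 to the left. Piezo2 lies to the right and Trpv4 to the left.

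Among matrix and basement membrane genes more rose than fell, and most did not pass the test. Of 92 tested, 16 passed (17.4%, against 2.88% of all genes), 12 higher and 4 lower, and the list median of 0.14 was below the 0.16 of all genes. Scaling left 12 of the 16, and against WT 34 alone 3 genes of the list were higher and 3 lower. The rises include 4 type IV collagen genes of the basement membrane: Col4a3 and Col4a4, neighbours on chromosome 1 that are read in opposite directions, had 9.38 and 12.3 and 13.2 and 18.6 TPM in NFIB/X-dKO and 2.72 and 2.02 and 4.61 and 3.25 TPM in WT libraries. Col4a5 and Col4a6, neighbours on chromosome X, had 30.2 and 33.97 and 29.7 and 31.8 TPM in NFIB/X-dKO and 18.2 and 17.99 and 17.4 and 16.2 TPM in WT. The members of the second pair were not past the test after scaling (adjusted p = 0.0788 and 0.0691). Against WT 34 alone neither pair was past it, with log2 differences of 1.66 and 1.57 for Col4a3 and Col4a4. The differences there were 0.78 and 0.79 for Col4a5 and Col4a6. Egfl6, a matrix protein of the upper bulge, had 284 and 292 TPM in NFIB/X-dKO and 85.6 and 101 TPM in WT (1.62 ± 0.13, SE, adjusted p = 0.0028). Tnc, tenascin C, had 143 and 170.1 TPM and 45.9 and 40.6 TPM (1.83 ± 0.28, adjusted p = 0.023). Vwa2, a basement membrane protein also called AMACO, had 316 and 323 TPM and 161 and 159 TPM. Neither Tnc nor Vwa2 was past the test against WT 34 alone.

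The matrix genes that fell were Col8a2, Col6a1, Aspn and Myoc. Col8a2, a short-chain collagen, had 23.04 and 21.3 TPM in NFIB/X-dKO and 129.8 and 115 TPM in WT libraries (-2.41 ± 0.18, SE, adjusted p = 0.00252). Col6a1 had 71.9 and 66.5 TPM in NFIB/X-dKO and 194 and 162 TPM in WT (-1.34 ± 0.14, adjusted p = 0.00612), and Aspn, the small leucine-rich proteoglycan asporin, 14.9 and 8.71 TPM and 73.9 and 48.97 TPM. Of the 2 chains of type I collagen, Col1a1 rose to 53.3 and 65.1 TPM in NFIB/X-dKO, against 12.2 and 16.6 TPM in WT, while Col1a2 had 2.17 and 2.81 TPM and 11.8 and 8.01 TPM and did not pass (adjusted p = 0.223). The 14 other fibroblast and dermal papilla markers, of which 10 were below the filter, summed to 73.3 and 76.4 TPM in NFIB/X-dKO, against 112 and 103 TPM in WT libraries.

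Genes of the sebaceous gland and of lipid synthesis held many falls, and no gene on the list rose past the test. Of its 44 genes tested of 52 in the files, 16 fell (36.4%, against 1.26% of all genes) and 0 rose, with a median of -0.62; 14 of the 16 passed after scaling, and 9 passed against WT 34 alone. Besides the desaturase Scd1 and Cidea, the falls included genes of wax and very-long-chain lipid synthesis. The elongase Elovl6 had 12.1 and 10.6 TPM in NFIB/X-dKO and 39.6 and 38.6 TPM in WT libraries (-1.70 ± 0.18, SE, adjusted p = 0.00612), and Far2, which makes fatty alcohols, had 4.34 and 2.77 TPM and 21.5 and 32.04 TPM (-2.60 ± 0.26, adjusted p = 0.00552). Awat1, a wax synthase, fell to 0.6 and 0.49 TPM in NFIB/X-dKO, against 4.8 and 13.6 TPM in WT, and Acsbg1, an acyl-CoA synthetase, to 17.9 and 17.3 TPM, against 51.1 and 72.9 TPM. Other lipogenic genes did not pass. Srebf1 had 60.2 and 67.05 TPM in NFIB/X-dKO and 61.9 and 77.7 TPM in WT libraries, and Acly 72.5 and 76.7 TPM and 74.7 and 71.8 TPM (adjusted p = 0.745 and 0.908). The fatty acid synthase Fasn had 38.2 and 39.9 TPM and 56.1 and 83.2 TPM (adjusted p = 0.0918), and Insig1 29.2 and 30.9 TPM and 63.6 and 68 TPM (adjusted p = 0.0594), both lower in each double knockout library than in either WT library, as was Me1 (adjusted p = 0.154). Mgst1, a marker of the sebaceous gland, had 314 and 324 TPM in NFIB/X-dKO and 243 and 239 TPM in WT (adjusted p = 0.132). In bulk libraries of sorted cells, fewer cells of a type and less RNA per cell cannot be told apart.

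Genes of the inner bulge and companion layer held 3 rises and 0 falls among 14 tested (21.4%, against 2.88% of all genes): Timp3, an inhibitor of metalloproteinases, had 106 and 122.8 TPM in NFIB/X-dKO and 18.2 and 23.5 TPM in WT libraries (2.41 ± 0.19, SE, adjusted p = 0.00256), the keratin Krt17 4752 and 5077 TPM and 1066 and 1515 TPM (1.95 ± 0.25, adjusted p = 0.0117), and Gja1 is given above. All 3 passed against WT 34 alone, while after scaling the list held 2 rises, without Gja1, and 1 fall, of Krt75. The defining keratins of these layers did not pass on deposited TPM: Krt75, of the companion layer, had 1.1 and 0.94 TPM in NFIB/X-dKO and 4.98 and 2.86 TPM in WT, and Krt6a 1379 and 948 TPM and 706 and 1539 TPM. Of 26 hair germ, matrix and shaft genes tested, 2 rose (7.69%, against 1.62% of all genes), Lgr4 and the adhesion gene Alcam (246 and 262 TPM in NFIB/X-dKO, 137 and 104 TPM in WT), and 0 fell; Shh, a signal of the growing germ, was below the filter.

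Interfollicular epidermis and cornified envelope genes gave 2 falls among 50 entries tested (4.0%, against 1.26% of all genes), a symbol such as Flg standing for several entries, and a median of 0.40 against 0.16 for all genes. Tgm5, a transglutaminase of the cornified envelope, fell to 105 and 112 TPM in NFIB/X-dKO, against 626 and 580.1 TPM in WT libraries (-2.47 ± 0.15, SE, adjusted p = 0.00139), and Elovl4, an elongase of barrier lipids that is on the sebaceous list too, to 20.8 and 17.7 TPM, against 69.8 and 98.2 TPM. Krt1, Krt10, Ivl and Lor did not pass. Ly6a, which encodes the Sca-1 antigen that the sort excluded, had 28.7 and 24.4 TPM in NFIB/X-dKO and 11.9 and 10.3 TPM in WT libraries, higher in both double knockout libraries but not past the test (adjusted p = 0.272); its part in the results of epidermal genes was not tested.

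Cell cycle genes gave 3 rises and 1 fall among 49 tested (8.16%, against 2.88% of all genes), with a median of 0.47. Gins2, a subunit of the replicative helicase complex, had 34.8 and 35.3 TPM in NFIB/X-dKO and 17.8 and 18.03 TPM in WT libraries, Uhrf1, which maintains DNA methylation at replication, 18.7 and 20.5 and 8.74 and 9.85 TPM, and cyclin D3 (Ccnd3) 162 and 145 and 88.3 and 98.7 TPM. None of these rises passed after scaling or against WT 34 alone. Cdkn1c, the cell cycle inhibitor p57, fell to 2.89 and 2.8 TPM, against 8.71 and 6.36 TPM in WT (-1.14 ± 0.20, SE, adjusted p = 0.0346), and passed in both checks. The proliferation marker Mki67 had 3.25 and 6.32 TPM in NFIB/X-dKO and 2.26 and 3.45 TPM in WT libraries, where library 33 lay below WT 82, so its groups overlapped. Of 24 Notch pathway genes, 1 passed (4.17%, against 2.88% of all genes): the protease gene Adam10 was higher in NFIB/X-dKO (31.04 and 30.7 TPM, against 17.01 and 15.6 TPM in WT), but passed neither against WT 34 alone (adjusted p = 0.0951) nor in any fit that left out 1 of the 4 libraries. The ligand Jag1 did not pass (adjusted p = 0.36).

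**Figure D4:**
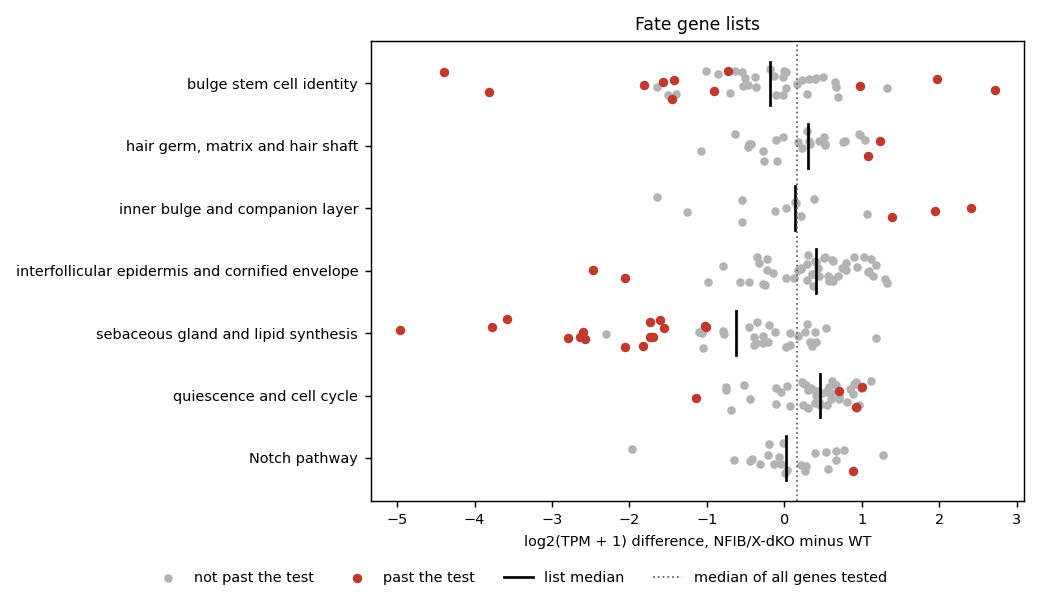
Differences between NFIB/X-dKO and WT in log2(TPM + 1) for the genes of 7 fate lists, 1 point per gene spread vertically for view only (red, past the test; grey, not past it), with each list's median as a black bar and the median of all genes tested (0.16) as a dotted line. The sebaceous and lipid list has 16 red points, all on the left, and the bulge list 8 on the left and 3 on the right.

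The double knockout was also set against each single knockout, with the same test and the same NFIB/X-dKO libraries, which the comparisons therefore share. Against NFIB-cKO, 35 of 15434 genes passed (0.227%), 24 higher (0.156%) and 11 lower (0.0713%) in the double knockout, 11 of them annotated as protein coding. Among the genes named here, Mest, Piezo2 and Tgm5 were in that number. Mest, a hydrolase gene expressed from the paternal copy, had 68.1 and 66.1 TPM in NFIB/X-dKO, 18.1 and 21.6 TPM in NFIB-cKO, 5.31 and 6.45 TPM in NFIX-cKO and 2.17 and 2.52 TPM in WT libraries, and differed from NFIB-cKO by 1.71 ± 0.17 (SE, adjusted p = 0.0138). Piezo2 had 15.8 and 20.5 TPM in NFIB-cKO and 10.7 and 8.58 TPM in NFIX-cKO libraries, and the double knockout was higher than NFIB-cKO by 1.58 ± 0.19 (adjusted p = 0.0357). Tgm5 had 330.4 and 256 TPM in NFIB-cKO and 512 and 455 TPM in NFIX-cKO libraries, and was lower in the double knockout than in NFIB-cKO, with a difference of -1.42 ± 0.15 on the log2 scale (adjusted p = 0.0202). For these 3 genes the double knockout lay beyond both single knockouts in every library.

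For most other genes the difference from NFIB-cKO did not pass the test, which does not show that the levels were the same. Lhx2 had 182 and 189 TPM in NFIB-cKO and 209.9 and 262 TPM in NFIX-cKO libraries, between the double knockout and WT, with a difference from NFIB-cKO of -0.72 ± 0.15 (SE, adjusted p = 0.185). Pdgfc had 49.9 and 60.3 TPM in NFIB-cKO and 29.1 and 33.7 TPM in NFIX-cKO, also between NFIB/X-dKO and WT (0.58 ± 0.21 from NFIB-cKO, adjusted p = 0.275). Sema3e had 114 and 164 TPM in NFIB-cKO and 116 and 109 TPM in NFIX-cKO, and the double knockout was higher than each of these 4 libraries (adjusted p = 0.178 against NFIB-cKO). Cxcl14 had 8871 and 8446 TPM in NFIB-cKO and 3919.5 and 4978 TPM in NFIX-cKO libraries, and the double knockout differed from NFIB-cKO by 0.14 ± 0.31 (adjusted p = 0.789).

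Against NFIX-cKO, 121 genes passed (0.784%), 71 higher (0.46%) and 50 lower (0.324%) in the double knockout. Which direction held more genes depended on the setting. After scaling, 35 were higher and 55 lower, and with pseudocount 0.1, 35 and 52. Rises remained the larger part with no filter (59 and 22), with a filter of 5 TPM (49 and 39), in a fit to the 2 groups compared (21 and 18) and with the animal number as a covariate (92 and 77). Timp3 had 21.97 and 19.96 TPM in NFIX-cKO libraries, close to its WT values, and the double knockout was higher by 2.39 ± 0.19 (SE, adjusted p = 0.00615). Wif1 had 54.8 and 58.6 TPM in NFIX-cKO, and the double knockout was higher by 2.18 ± 0.24 (adjusted p = 0.0189). Krt24 had 248 and 261 TPM in NFIX-cKO and 46 and 71.1 TPM in NFIB-cKO libraries, and the double knockout was lower than NFIX-cKO, with a difference of -3.15 ± 0.22 on the log2 scale (adjusted p = 0.00363). Lhx2, Hopx, Pdgfc, Ptn, Ccl27a, Glrb, Epha4 and Tnfrsf11b passed in the same comparison, whereas Lgr4, Lgr5, Grem1, Cxcl12 and Kcnn3 did not, with adjusted p from 0.0505 to 0.113. Library NFIX-cKO 32 stood apart from NFIX-cKO 88 in epidermal keratins, with 444 against 102 TPM of Krt1 and 1596 against 396 TPM of Krt10; without it the comparison gave 85 genes, and without NFIX-cKO 88 it gave 20. edgeR's quasi-likelihood test on expected counts, deposited for both groups of this comparison, called 59 genes, 22 higher and 37 lower in the double knockout. DESeq2 called 835, 338 higher and 497 lower.

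**Figure D5:**
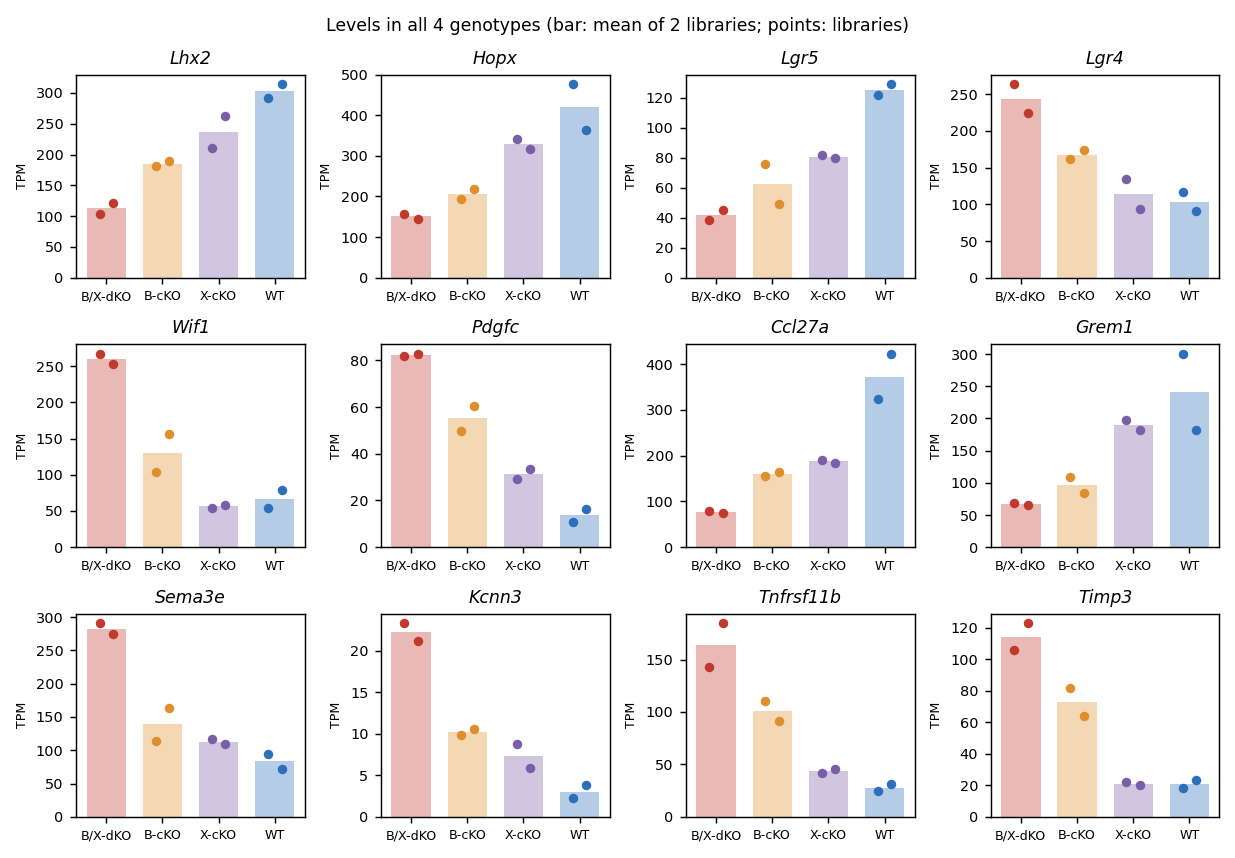
TPM of 12 genes in the 4 genotypes, from left to right NFIB/X-dKO, NFIB-cKO, NFIX-cKO and WT; bars are the means of 2 libraries and points the libraries, on axes that start at 0. In Lhx2, Hopx, Lgr5, Ccl27a and Grem1 the double knockout is the lowest genotype and WT the highest, and in Lgr4, Pdgfc, Sema3e, Kcnn3 and Tnfrsf11b the order of these 2 is turned round.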

How the data were processed

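RNA sequencing values of sorted hair follicle stem cells from 8 male mice, 2 per genotype, were used. Alignment and quantification were by Bowtie2 2.2.9 and RSEM 1.2.30 on mm10 (GRCm38), per the submitters' processing notes; the annotation release and the strandedness of the counting are not given in the sources used here, so genes that overlap another gene, antisense genes and near-identical copies (the Ccl27a family, Serpina3 and Serpinb6 genes) are uncertain. Libraries were made with the Illumina TruSeq mRNA kit and read as pairs on either of 2 Illumina HiSeq models, per the labels' protocols, with no record of which library was read on which model. The authors deposited TPM for all 8 libraries, which were used as they are. Expected counts, deposited by the authors for 5 libraries (57173266 to 66854625 reads in total), were rounded to whole numbers for the count tests. TPM hold no depth, so no floor or counting interval is given.

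Genes with at least 1 TPM in at least 2 libraries were tested (15434 of 46517; 92 spike-in entries, all at 0, were left out). limma 3.58.1 with a variance trend (R 4.3.3) was fitted to log2(TPM + 1) in all 8 libraries with 4 group means (4 residual and 3.097 prior degrees of freedom), and p-values were adjusted by Benjamini-Hochberg over all genes tested. The fit was tested on data simulated from the means and spread of the tested genes. It recovered 55.2% of 67 genes changed by 1 on the log2 scale. For changes of 2 and 3 it recovered 94% of 67 and 97% of 66 genes. In the same simulation 17 unchanged genes were called. Each simulated gene had the same spread in all groups, so the simulation does not show how the fit performs where groups differ in spread. Fold changes on this scale understate the change of low genes; ratios in the text are of mean TPM. edgeR 4.0.16 and DESeq2 1.42.0 were run on expected counts for NFIB/X-dKO against NFIX-cKO. Alternatives were median-of-ratios scaling, pseudocount 0.1, no filter, a filter of 5 TPM, a fit to the 2 groups compared, the animal number (30s or 80s) as a covariate or a split, and each library left out.

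Gene lists and members were chosen with earlier results of these data known, so no list is independent support. Named were, per gene class, up to 6 rises and 6 falls past the test with a mean of at least 5 TPM in the higher group and no overlap, up to 6 of each per fate or marker list, the 25 largest rises and falls over all genes, and fixed fate genes. Every other list member past the test, Ly6a, Itga6, Mgst1, Pdgfa, Pdgfb, Col1a2, Wnt10a, Jag1 and Krt8, and other list members given with values, were added after their values were seen; 1 gene counted in a list is not reported here by name. Promoter sequences are from RefSeq on GRCm38.p6 and coordinates of genes from GENCODE M21 on the same build.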

Additional observations from a re-analysis of the deposited data

How the results depend on the processing

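The count of genes that differed between NFIB/X-dKO and WT (445) was 270 with no filter on low values, and ranged from 40 to 579 when 1 library was left out: 49 and 40 when it was NFIB/X-dKO 33 or 36, 240 and 239 when it was NFIB-cKO 81 or 85, and 194 without WT 82. Against NFIB-cKO (35 genes) it was 23 with pseudocount 0.1, 71 with no filter, 17 with a filter of 5 TPM, 3086 in a fit to the 2 groups compared and 22 with the animal number as a covariate, and 8 to 74 with 1 library left out (10 and 9 without NFIB/X-dKO 33 and 36, 12 and 8 without NFIB-cKO 81 and 85, and 74 without either NFIX-cKO library). Against NFIX-cKO (121 genes) it was 39 in a fit to the 2 groups compared, 17 within the 30s, 59 by edgeR and 835 by DESeq2, and 6 to 105 with 1 library left out (6 and 8 without NFIB/X-dKO 33 and 36, 30 without either NFIB-cKO library and 20 without NFIX-cKO 88). Fits to 4 libraries estimate the spread from those libraries alone. A comparison within the 30s could not be made against NFIB-cKO, which has no animal there. The sign changed only in genes that did not pass: Bmp4 was -0.19, Krt10 -0.11, Nfatc1 0.28 and Nfic -0.11 with the animal number as a covariate; Krt5 was -0.061 and Nfic -0.074 after scaling; within the 30s and without WT 82, Krt5 was -0.013, Nfatc1 0.35 and Nfic -0.075; without WT 34, Lor was 0.88; without NFIB/X-dKO 33, Nfatc1 was 0.17. With 1 library left out, Krt5 ranged from -0.013 to 0.25 (0.12 with all), Lor from -1.16 to 0.88 (-0.14), Nfatc1 from -0.57 to 0.35 (-0.11) and Nfic from -0.075 to 0.28 (0.10). The cause was not tested. Of the 173 named genes that passed, 138 also passed after scaling, 157 with pseudocount 0.1 and 84 with no filter. No paired analysis was possible because the groups share no replicate number. With 2 libraries a group and unknown depth in WT, genes under about 1 TPM in both groups were not testable.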

Other observations

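Some solute carrier and protease genes also passed the test. Of 221 carrier genes tested, 11 passed (4.98%, against 2.88% of all genes) and 210 did not, with 7 higher and 4 lower, and all 11 also passed after scaling. Slc18a3, the vesicular acetylcholine transporter, had 21.4 and 18.7 TPM in NFIB/X-dKO and 1.86 and 2.57 TPM in WT libraries (2.72 ± 0.30 on the log2 scale, SE, adjusted p = 0.00746), and Slc17a9, the vesicular nucleotide transporter, had 6.2 and 5.9 TPM and 1.55 and 1.63 TPM. Slc40a1, the iron exporter ferroportin, rose to 12.9 and 16.03 TPM in NFIB/X-dKO, against 5.16 and 3.48 TPM in WT. Amino acid carriers were on both sides: Slc43a1 fell to 2.72 and 2.7 TPM, against 36.5 and 18.99 TPM in WT (-2.88 ± 0.29, adjusted p = 0.00552), and Slc1a5 to 6.32 and 6.35 TPM, against 16.9 and 14.5 TPM, while its relative Slc1a4 rose to 14.5 and 13.1 TPM, against 6.32 and 5.15 TPM.

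Of 111 protease and protease inhibitor genes tested, 14 passed (12.6%, against 2.88% of all genes), 10 higher and 4 lower. Pappa, a protease that cleaves binding proteins of insulin-like growth factors, had 13.6 and 12.8 TPM in NFIB/X-dKO and 2.02 and 1.21 TPM in WT libraries (2.46 ± 0.26, adjusted p = 0.00612). Serpinb11 had 457 and 396 TPM and 112 and 149 TPM, and cathepsin H (Ctsh) 124 and 120.5 TPM and 59.03 and 59.5 TPM. Adamtsl4, a matrix protein of the ADAMTS-like family, fell to 23.9 and 26.9 TPM in NFIB/X-dKO, against 143 and 169 TPM in WT (-2.56 ± 0.25, adjusted p = 0.00548). Ecm1, extracellular matrix protein 1, which is on no list, fell to 98.1 and 104 TPM in NFIB/X-dKO, against 619 and 795 TPM in WT. Outside the lists, the actin-binding gene Synpo2 had 31.7 and 35.5 TPM in NFIB/X-dKO and 3.22 and 5.64 TPM in WT libraries, Sphkap, an anchor of protein kinase A, 70.7 and 66.9 TPM and 9.38 and 12.1 TPM, and Lmcd1, a LIM domain protein, 90.7 and 92.2 TPM and 10.98 and 24.04 TPM. Crabp1, which binds retinoic acid and is on the fibroblast and dermal papilla list, fell to 2.83 and 1.39 TPM in NFIB/X-dKO, against 23.5 and 24.3 TPM in WT (-3.04 ± 0.29, adjusted p = 0.00477). In each of these genes both NFIB/X-dKO libraries lay on the same side of both WT libraries. For genes named by class or by size of change this was a condition of naming. Both NFIB/X-dKO libraries lay above both WT libraries in 38.4% of all tested genes and below in 17.1%.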
